A study of Macaca mulatta with 24 samples.

Results

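The genes followed here are 50 collagens, matrix glycoproteins, proteoglycans, cross-linking enzymes and fibroblast activation genes, a list drawn up for the connective tissue of the gut wall. Genes were matched by symbol to the probes of the array, and a gene with several probes was represented by the one with the greatest mean signal on the 24 arrays. Probes were found for 38 of the 50 genes, out of 16094 genes with a symbol on the array, and all 38 passed the filter on low signal. The other 12 genes (COL5A1, COL5A2, COL4A1, COL7A1, COL18A1, LAMA2, LAMC1, FBLN1, FBLN2, TNC, THBS2 and LOXL2) had no probe by symbol and are not analysed here. All of the 7 fibril-associated, beaded-filament and network collagens, the 4 proteoglycans and the 11 growth factors, receptors and activation genes had a probe. The gaps lay in the basement membrane (4 of 9 with a probe), the matrix and matricellular glycoproteins (5 of 9), the fibril-forming collagens (3 of 5) and the elastic fibres with their cross-linking enzymes (4 of 5).

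The samples were segments of colon from young adult male rhesus macaques, taken after a single total-body irradiation (TBI) from a cobalt source or after sham irradiation. The dose was 6.7 Gy in one set of animals and 7.4 Gy in another, with 4 animals per dose on day 4, 4 per dose on day 7 and 2 per dose on day 12. The 4 sham-irradiated controls (0 Gy) are labelled as taken on day 4, and the same 4 arrays stand as control for every irradiated group. Each array held the RNA of 1 animal and of the whole gut wall, so that epithelium, lamina propria, vessels and muscle contributed together, and a larger number of fibroblasts cannot be told apart from more RNA per fibroblast.

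A level is the log2 signal of a probe minus the log2 of the 75th percentile of its array, so that 0 is the level of a fairly bright probe and 1 unit is a 2-fold change. A gene was called where limma's adjusted p was under 0.05 over all probes tested and the change was at least 2-fold. Of the 14716 genes tested, the share called in each comparison is given beside the count for the matrix genes. Signals of different probes depend on the probe as well as on the RNA, and levels are compared only within a gene. Of the 38 genes, 31 were well above background on all 24 arrays, and the dimmest, LOX, was so on 11. Between arrays within a group, Pearson's r over probes lay between 0.963 and 0.985, and genes are not independent replicates. The labels do not tie samples to litters or shipments. The p-values measure the spread between arrays of a group, which mixes animal with slide and, in some groups, with scan day.

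The matrix of the gut wall is made largely by fibroblasts of the lamina propria and submucosa and by smooth muscle cells. Fibril-forming collagens are secreted as procollagens, trimmed, assembled with fibronectin and small proteoglycans, and cross-linked by lysyl oxidases, whereas laminins, nidogens and network collagens form the basement membrane under epithelium and endothelium. TGF-beta, activins and platelet-derived growth factors are known activators of fibroblasts, and connective tissue growth factor acts downstream of TGF-beta. Late fibrosis of the bowel wall is a known sequel of abdominal irradiation.

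The matrix genes were higher on day 4 at both doses and lay near the control level on days 7 and 12, as their median level on each array shows. The median level of the 38 genes was 1.22, 0.91, 0.96 and 0.72 in control replicates 1 to 4. It was 1.63, 1.90, 1.56 and 1.01 on day 4 after 6.7 Gy and 1.97, 1.85, 2.12 and 1.53 on day 4 after 7.4 Gy. All 4 arrays of 7.4 Gy on day 4 lay above all controls, whereas replicate 4 of 6.7 Gy on day 4 lay below control replicate 1. On day 7 the medians ran from 0.98 to 1.22 after 6.7 Gy and from 0.98 to 1.26 after 7.4 Gy. On day 12 they were 1.11 and 0.41 after 6.7 Gy and 1.45 and 1.07 after 7.4 Gy. The pair of animals at 6.7 Gy on day 12 thus spanned more than the 4 controls did, and replicate 2 of that group had the lowest median of all 24 arrays.

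**Figure D1:**
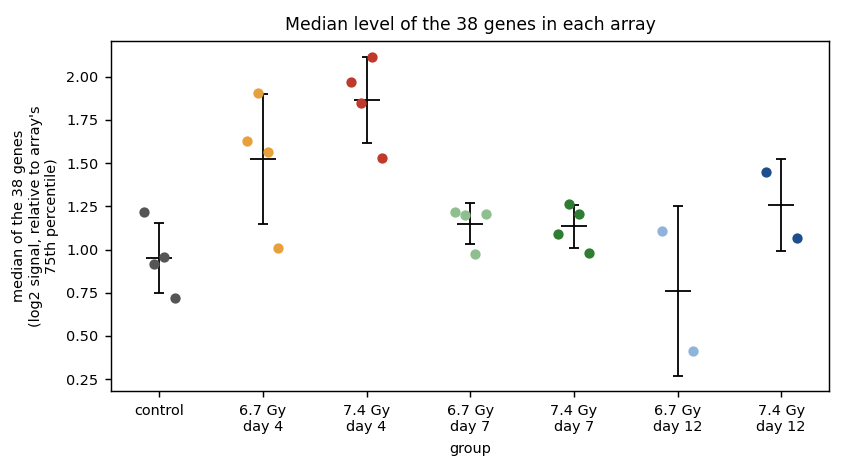
Median log2 signal of the 38 measured genes (y axis, relative to the 75th percentile of the array) in each array, by group on the x axis. Points are arrays, 1 animal each, and bars are the mean ± SD of the group (n = 4, and n = 2 on day 12). The highest point is replicate 3 of 7.4 Gy on day 4 at 2.12.

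On day 4 after 6.7 Gy, 3 of the 38 genes were called, all of them higher: VCAN, CTGF and ADAMTS1. That is 7.89% of the genes, beside 4.15% of all genes tested (2.25% higher), and with 3 genes that share is read as near the background. On day 4 after 7.4 Gy, 12 of the 38 genes (31.6%) were called, all of them higher, beside 8.03% of all genes tested (4.13% higher). These were COL1A2, COL3A1, COL6A3, COL16A1, LAMB1, SPARC, VCAN, LOX, CTGF, PDGFRB, FAP and ADAMTS1, of which LOX was well above background on 1 of the 4 controls. The median log2 change of the 38 genes was 0.45 at 6.7 Gy, with 32 of 38 above 0, and 0.84 at 7.4 Gy, with 35 of 38 above 0. Over all genes tested the medians were -0.04 and -0.03. On day 7 none of the 38 was called at either dose, beside 0.387% of all genes at 6.7 Gy and 0.462% at 7.4 Gy. By limma the unadjusted p was under 0.05 for 4 of the 38 at 6.7 Gy, 3 higher and 1 lower. At 7.4 Gy it was so for 7, 3 higher and 4 lower. On day 12 none was called, beside 0.0136% and 0.0204% of all genes, and 3 of 38 had an unadjusted p under 0.05 at each dose. All 3 were lower at 6.7 Gy, and 2 of 3 at 7.4 Gy. The share of all genes under that looser threshold is not given, here or below. The methods' t-test, after adjustment, called none of the 38 on days 7 and 12. Of all 38216 probes tested it called 1 and 2 on day 7 and 0 and 0 on day 12, so this says little about the matrix genes.

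**Figure D2:**
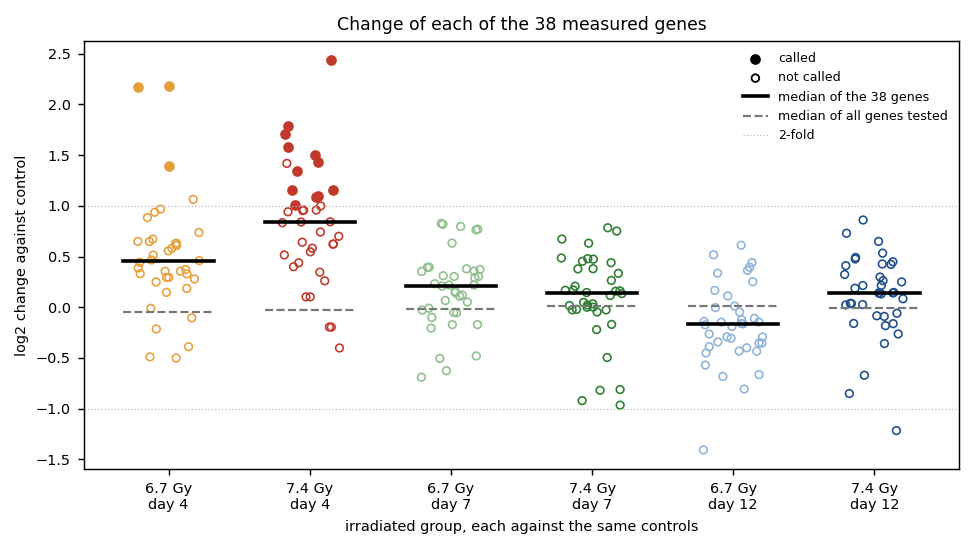
Log2 change of each of the 38 measured genes against control (y axis) in the 6 irradiated groups (x axis), all set against the same 4 controls. Filled points were called, black bars are the median of the 38 genes and dashed bars the median of all genes tested; on day 4 the black bars lie at 0.45 and 0.84, and on the later days between -0.17 and 0.21.

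The counts on day 4 also changed with terms for the layout of the arrays on their slides. The controls lay at array position 1, the arrays of 7.4 Gy on day 4 at position 2, and those of day 12 at position 4, so that for days 7 and 12 position and group cannot be told apart. On day 4 the group of 6.7 Gy spanned positions 1 and 2; within position 1 its replicates 1 and 2 against the controls gave 4 called genes in place of 3, those 3 among them. At 7.4 Gy on day 4 position could be told apart from group only through the arrays of 6.7 Gy. Their replicates 1 and 2 lay at position 1, and replicates 3 and 4 at position 2 and on another scan day. For the fit within position 1 and for the blocks below the share of all genes called is not given. With position as a block, 4 genes were called at 6.7 Gy and 15 genes were called at 7.4 Gy, 7 of the 12 among them. With position and scan day together 2 were called at 7.4 Gy, of which ADAMTS1 was one of the 12. In that last fit the changes of the 12 genes ran from 1.33 to 5.03, and 11 of them had adjusted p of 0.0525 to 0.603 by limma. With slide as a block 1 of the 3 genes at 6.7 Gy was called, VCAN, with changes of 1.40 to 1.88 for the 3, and 10 genes at 7.4 Gy, 9 of the 12 among them.

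**Figure D3:**
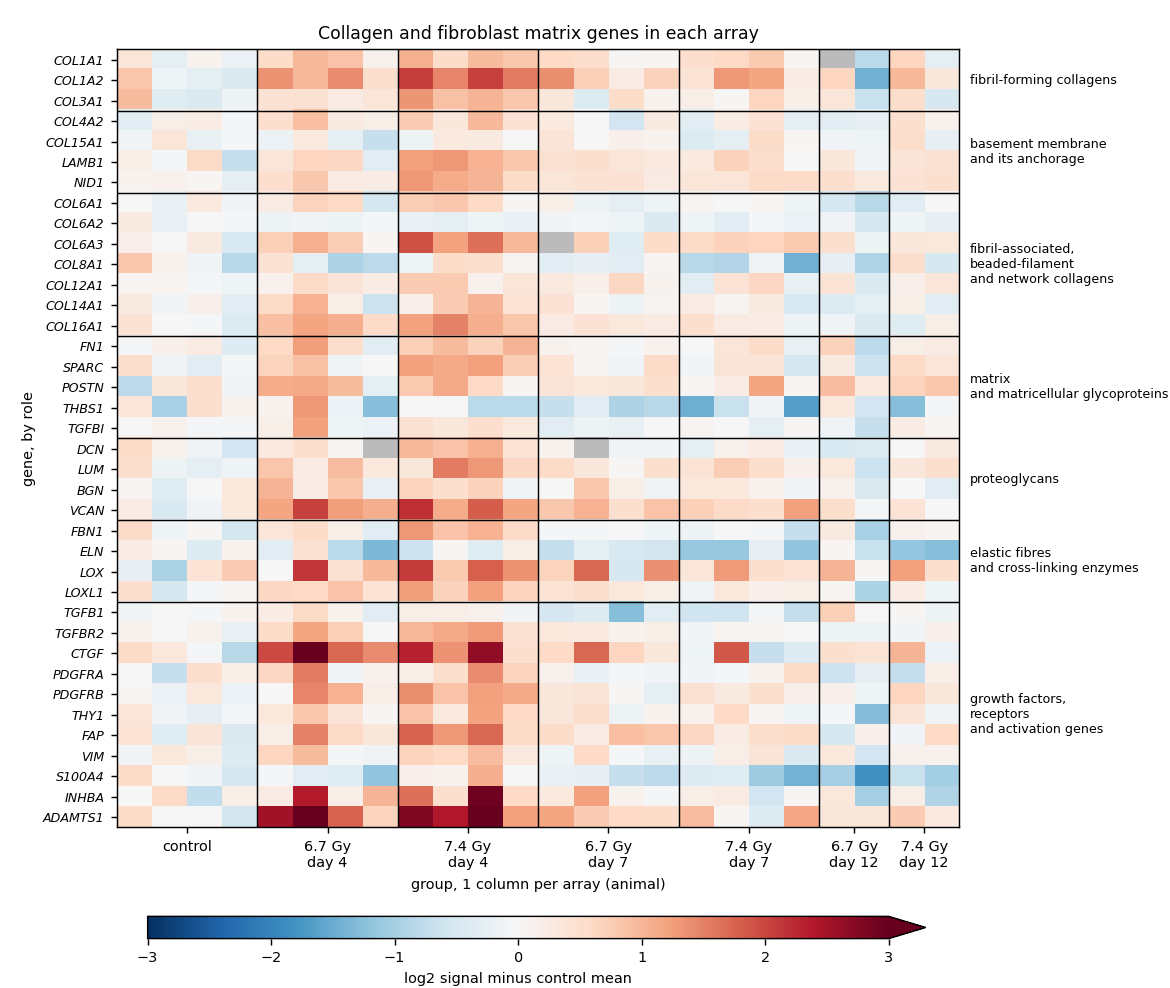
Level of the 38 measured genes in each of the 24 arrays, as log2 signal minus the mean of the 4 controls (colour, red higher and blue lower, saturated at 3). Rows are genes grouped by role and columns are arrays grouped by dose and day; grey cells are outlier spots set to missing. Red is concentrated in the 8 columns of day 4, and replicate 4 of 6.7 Gy on day 4 is paler than its group.

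Among the fibril-forming collagens, COL1A2 and COL3A1 rose on day 4 after 7.4 Gy, and COL1A1 passed the p threshold without reaching 2-fold. COL1A2 encodes the alpha-2 chain of type I collagen, the main fibril of the submucosa. Its levels were 3.31, 2.35, 2.21 and 2.03 in the controls, 3.82, 3.45, 3.90 and 2.99 on day 4 after 6.7 Gy and 4.56, 3.93, 4.54 and 4.03 on day 4 after 7.4 Gy. All 4 arrays at 7.4 Gy were above all controls, and at 6.7 Gy 3 of 4 were. The change at 7.4 Gy was 1.79 (SE 0.39), or 3.45-fold, with an adjusted p of 0.00378 by limma, and at 6.7 Gy 1.06 with an adjusted p of 0.0895. On day 7 COL1A2 read 3.88, 3.20, 2.72 and 3.16 after 6.7 Gy and 2.89, 3.79, 3.66 and 2.70 after 7.4 Gy, and on day 12 3.13 and 1.03 after 6.7 Gy and 3.44 and 2.81 after 7.4 Gy. All 4 of these groups overlapped with the controls, and replicate 2 of 6.7 Gy on day 12 lay below every control. A second, dimmer probe of COL1A2 changed by 0.16 and 0.19 on day 4 (adjusted p 0.755 and 0.656), so the rise was read by 1 of its 2 probes.

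COL3A1, the type III collagen chain of distensible tissues, had one of the brightest probes of the list. Its levels were 7.74, 6.44, 6.36 and 6.65 in the controls, 7.24, 7.26, 7.04 and 7.15 on day 4 after 6.7 Gy and 8.13, 7.68, 7.82 and 7.6 on day 4 after 7.4 Gy. Control replicate 1 lay above 2 of the 4 arrays at 7.4 Gy, so the groups overlapped. The change at 7.4 Gy was 1.01 (SE 0.29), a 2.01-fold rise with an adjusted p of 0.0211 by limma. That is just past the 2-fold threshold, and the call was lost under 10 of 23 alternatives, among them without control replicate 2, 3 or 4 or replicate 1 at 7.4 Gy (changes of 0.86 to 0.96). The gene's 3 other probes changed by 0.89, 0.97 and 0.86. On day 7 COL3A1 read 7.14, 6.39, 7.35 and 6.90 after 6.7 Gy and 6.99, 6.84, 7.44 and 6.98 after 7.4 Gy, and on day 12 7.15 and 6.13 after 6.7 Gy and 7.33 and 6.32 after 7.4 Gy, all within the range of the controls but for the lower array at 6.7 Gy and at 7.4 Gy on day 12. COL1A1, the alpha-1 chain of type I collagen, had 1.24, 0.60, 1.0 and 0.71 in the controls and 1.95, 1.44, 1.83 and 1.70 on day 4 after 7.4 Gy, without overlap. Its change of 0.84 (adjusted p 0.0169) passed the p threshold but not the 2-fold one.

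The basement membrane genes showed 1 call and 1 near it at 7.4 Gy. LAMB1, the beta-1 chain of several laminins, read 1.59, 1.36, 1.99 and 0.73 in the controls, 1.78, 2.07, 2.04 and 1.11 on day 4 after 6.7 Gy and 2.64, 2.71, 2.47 and 2.24 on day 4 after 7.4 Gy. All arrays at 7.4 Gy lay above all controls, while those at 6.7 Gy overlapped with them. LAMB1 rose 2.14-fold at 7.4 Gy (log2 change 1.1, SE 0.24, adjusted p 0.00334 by limma), and without control replicate 4 its change was 0.87, short of 2-fold. NID1, nidogen-1, which links laminin to type IV collagen, read 0.53, 0.56, 0.48 and 0.16 in the controls, 0.95, 1.23, 0.68 and 0.65 on day 4 after 6.7 Gy and 1.73, 1.55, 1.46 and 0.99 on day 4 after 7.4 Gy. Neither dose overlapped with the controls. Its change of 1.0 at 7.4 Gy (SE 0.16, adjusted p 0.00029) ended just short of 2-fold, and the second NID1 probe changed by 0.29 (adjusted p 0.23).

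On the later days LAMB1 was back within the range of the controls on all but 1 array, and the representative probe of NID1 was not. LAMB1 read 1.87, 1.89, 1.77 and 1.72 on day 7 after 6.7 Gy, 1.70, 2.12, 1.94 and 1.43 on day 7 after 7.4 Gy, 1.76 and 1.30 on day 12 after 6.7 Gy and 1.81 and 1.89 on day 12 after 7.4 Gy. NID1 read 0.79, 0.88, 0.88 and 0.68 on day 7 and 0.93 and 0.73 on day 12 after 6.7 Gy, and 0.80, 0.81, 1.02 and 1.01 on day 7 and 0.86 and 0.91 on day 12 after 7.4 Gy. By this probe every one of these arrays was above every control, although the changes of 0.37, 0.47, 0.39 and 0.45 did not pass the test (adjusted p 0.437, 0.215, 0.776 and 0.659). The second NID1 probe, well above background on all 24 arrays, changed by -0.11, -0.11, 0.00 and -0.02 in these groups. COL4A2, a chain of the type IV network, and COL15A1, which sits at the outer face of the basement membrane, changed by 0.62 and 0.10 on day 4 after 7.4 Gy and were not called.

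Among the fibril-associated, beaded-filament and network collagens, COL6A3 and COL16A1 rose. COL6A3 encodes the alpha-3 chain of type VI collagen, which forms beaded filaments around cells. Its levels were 2.45, 2.31, 2.56 and 1.83 in the controls, 3.01, 3.36, 3.02 and 2.35 on day 4 after 6.7 Gy and 4.19, 3.49, 3.93 and 3.25 on day 4 after 7.4 Gy. The arrays at 7.4 Gy were all above the controls, and 1 of the 4 at 6.7 Gy was within their range. COL6A3 rose 2.69-fold at 7.4 Gy (log2 change 1.43, SE 0.26, adjusted p 0.00108 by limma), beside 0.65 at 6.7 Gy (adjusted p 0.119). Its second, dimmer probe changed by 1.16 at 7.4 Gy and was not called (adjusted p 0.0629). On day 7 it read 3.00, 1.92 and 2.84 in the 3 arrays of 6.7 Gy that could be used (replicate 1 was an outlier spot) and 2.85, 2.98, 2.92 and 3.08 after 7.4 Gy. On day 12 it read 2.77 and 2.13 after 6.7 Gy and 2.62 and 2.59 after 7.4 Gy. The arrays of 7.4 Gy on days 7 and 12 were all above the controls, with changes of 0.67 and 0.32 that did not pass the test (adjusted p 0.313 and 0.907), whereas the second probe changed by -0.23 and -1.02 there.

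COL16A1, a fibril-associated collagen found at the surface of mesenchymal cells, was the collagen with the smallest adjusted p on day 4. It read 3.05, 2.62, 2.59 and 2.21 in the controls, 3.53, 3.79, 3.71 and 3.18 on day 4 after 6.7 Gy and 3.82, 4.11, 3.71 and 3.46 on day 4 after 7.4 Gy. Neither dose overlapped with the controls. Its changes were 0.94 at 6.7 Gy (adjusted p 0.00595, short of 2-fold) and 1.16 at 7.4 Gy (SE 0.19, 2.23-fold, adjusted p 0.000466 by limma). COL16A1 read 2.86, 3.05, 2.93 and 2.87 on day 7 after 6.7 Gy, 3.12, 2.86, 2.85 and 2.47 on day 7 after 7.4 Gy, 2.51 and 2.19 on day 12 after 6.7 Gy and 2.26 and 2.79 on day 12 after 7.4 Gy. All 4 of these groups overlapped with the controls.

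The type VI collagen chains did not give the same reading. COL6A2 was the other very bright probe of the list, at 7.04, 6.55, 6.78 and 6.73 in the controls and 6.58, 6.51, 6.65 and 6.57 on day 4 after 7.4 Gy, and it changed by -0.10 and -0.20 at the 2 doses (adjusted p 0.631 and 0.268). The dimmer COL6A2 probe changed by 0.03 and 0.26. The probe named COL6A1, whose description in the scanner files names a type IV collagen chain instead, changed by 0.25 and 0.55, so its identity is uncertain. COL12A1 and COL14A1, both fibril-associated, changed by 0.52 and 0.58 at 7.4 Gy without a call, but the second COL14A1 probe was called, with a change of 1.40 (adjusted p 0.00355 by limma). COL8A1, a network collagen of vessels, changed by -0.39 at 6.7 Gy and 0.26 at 7.4 Gy.

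Of the matrix and matricellular glycoproteins, SPARC rose at 7.4 Gy. SPARC binds collagen and calcium and modulates the contact of cells with their matrix. Its levels were 1.52, 0.93, 0.73 and 0.99 in the controls, 1.70, 1.92, 0.94 and 1.03 on day 4 after 6.7 Gy and 2.27, 2.19, 2.27 and 1.79 on day 4 after 7.4 Gy. The arrays of 7.4 Gy were all above the controls, and at 6.7 Gy 2 of the 4 were. SPARC rose 2.12-fold at 7.4 Gy (log2 change 1.09, SE 0.26, adjusted p 0.00716 by limma) and stood at 0.35 at 6.7 Gy (adjusted p 0.419). Without control replicate 3 the change at 7.4 Gy was 0.98, short of 2-fold. On day 7 it read 1.45, 1.08, 0.96 and 1.61 after 6.7 Gy and 0.96, 1.44, 1.43 and 0.54 after 7.4 Gy, and on day 12 1.30 and 0.40 after 6.7 Gy and 1.62 and 1.42 after 7.4 Gy, overlapping with the controls in every group.

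FN1 encodes fibronectin, on which collagen fibrils assemble. It read 3.98, 4.17, 4.27 and 3.63 in the controls, 4.61, 5.27, 4.53 and 3.69 on day 4 after 6.7 Gy and 4.73, 4.96, 4.69 and 5.02 on day 4 after 7.4 Gy. The arrays at 7.4 Gy did not overlap with the controls and were close together, while those at 6.7 Gy spread from within the controls to the highest of all. The FN1 change of 0.84 at 7.4 Gy (SE 0.29, adjusted p 0.045 by limma) passed the p threshold and not the 2-fold one, and its 3 other probes changed by 0.98, 0.87 and 0.42. On day 7 FN1 read 4.12, 4.07, 3.98 and 4.13 after 6.7 Gy and 4.00, 4.37, 4.56 and 3.78 after 7.4 Gy, and on day 12 4.69 and 3.23 after 6.7 Gy and 4.2 and 4.26 after 7.4 Gy. The pair at 6.7 Gy on day 12 lay on either side of the controls, and the other groups overlapped with them. POSTN (periostin) and TGFBI (TGF-beta induced protein), both adhesive matrix proteins, changed by 0.64 and 0.40 at 7.4 Gy, and THBS1 (thrombospondin-1, which can release active TGF-beta) by -0.40, none of them called.

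The proteoglycan VCAN was called at both doses on day 4. VCAN encodes versican, a large proteoglycan of loose and provisional matrix. Its levels were 0.64, -0.07, 0.27 and 0.69 in the controls, 1.56, 2.44, 1.62 and 1.48 on day 4 after 6.7 Gy and 2.58, 1.5, 2.20 and 1.56 on day 4 after 7.4 Gy. All 8 irradiated arrays lay above all 4 controls, with replicate 2 at 6.7 Gy apart from the rest of its group. VCAN rose 2.63-fold at 6.7 Gy (log2 change 1.39, SE 0.26, adjusted p 0.00371) and 2.98-fold at 7.4 Gy (1.58, SE 0.26, adjusted p 0.000501), by limma. The 2 other VCAN probes differed: one changed by 1.12 and 1.29, the other by -0.01 and -0.07. On day 7 VCAN read 1.19, 1.42, 0.87 and 1.23 after 6.7 Gy and 1.09, 0.94, 0.90 and 1.60 after 7.4 Gy, above all controls, with changes of 0.80 and 0.75 that did not pass the test (adjusted p 0.256 and 0.255). On day 12 it read 0.91 and 0.35 after 6.7 Gy and 0.80 and 0.39 after 7.4 Gy, with 1 array of each dose above the controls and 1 among them.

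The small leucine-rich proteoglycans, which regulate fibril growth, did not reach 2-fold on day 4 after 7.4 Gy. LUM (lumican) read 1.67, 0.99, 0.88 and 1.01 in the controls, 1.96, 1.39, 2.07 and 1.46 on day 4 after 6.7 Gy and 1.47, 2.70, 2.44 and 1.75 on day 4 after 7.4 Gy. Control replicate 1 stood apart from the other controls and overlapped with both doses. The LUM change was 0.95 at 7.4 Gy (SE 0.27, adjusted p 0.017 by limma). On day 7 LUM read 1.72, 1.47, 1.17 and 1.62 after 6.7 Gy and 1.54, 1.88, 1.66 and 1.28 after 7.4 Gy, and on day 12 1.45 and 0.50 after 6.7 Gy and 1.48 and 1.62 after 7.4 Gy. These groups overlapped with the controls, except that replicate 2 of 6.7 Gy on day 12 lay below them. DCN (decorin) changed by 0.83 at 7.4 Gy (adjusted p 0.00921), and its 2 other probes by 0.91 and 0.89, while BGN (biglycan) changed by 0.44 (adjusted p 0.249). At 6.7 Gy DCN was fitted on 3 arrays, since 1 spot was an outlier.

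Of the elastic fibre genes and cross-linking enzymes, LOX was the 1 gene called at 7.4 Gy, from a dim probe. LOX encodes lysyl oxidase, which cross-links collagen and elastin, and its probe was the dimmest of the list. It read -6.92, -7.62, -6.26 and -5.90 in the controls, of which 1 of 4 arrays was well above background, -6.7, -4.55, -6.22 and -5.70 on day 4 after 6.7 Gy (2 of 4) and -4.59, -5.89, -4.88 and -5.33 on day 4 after 7.4 Gy (4 of 4). The arrays at 7.4 Gy all lay above the controls, the lowest of them by little. The fitted log2 change at 7.4 Gy was 1.5 (SE 0.50, adjusted p 0.0384 by limma), set against a control group that was mostly not well above background, so that it is no measured fold. The call was lost under 12 of 23 alternatives, among them without control replicate 1 or 2 or replicate 1, 3 or 4 at 7.4 Gy (adjusted p 0.0605 to 0.119), and with normexp background correction the change was 0.04. On day 7 LOX read -6.01, -4.95, -7.16 and -5.30 after 6.7 Gy (2 of 4 arrays well above background) and -6.31, -5.41, -6.19 and -6.26 after 7.4 Gy (1 of 4). On day 12 it read -5.67 and -6.65 after 6.7 Gy (1 of 2) and -5.45 and -6.18 after 7.4 Gy (0 of 2), and these later groups overlapped with the controls.

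LOXL1, a lysyl oxidase of elastic fibres, read 1.69, 0.73, 1.15 and 1.24 in the controls, 1.83, 1.8, 2.07 and 1.62 on day 4 after 6.7 Gy and 2.45, 1.89, 2.42 and 1.88 on day 4 after 7.4 Gy. The arrays at 7.4 Gy did not overlap with the controls, and at 6.7 Gy replicate 4 did. Its change at 7.4 Gy was 0.96 (SE 0.21, adjusted p 0.00438 by limma), short of 2-fold. On day 7 LOXL1 read 1.61, 1.72, 1.51 and 1.38 after 6.7 Gy and 1.09, 1.52, 1.36 and 1.38 after 7.4 Gy, and on day 12 1.25 and 0.25 after 6.7 Gy and 1.42 and 1.07 after 7.4 Gy, with all 4 groups overlapping with the controls. FBN1, fibrillin-1 of the microfibrils, changed by 0.94 at 7.4 Gy (adjusted p 0.0154), also short of 2-fold. ELN, elastin itself, changed by -0.50 and -0.19 on day 4 and by -0.51, -0.92, -0.31 and -1.22 in the later groups, none of them called (adjusted p between 0.213 and 0.962).

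The growth factor, receptor and activation genes held the largest changes. ADAMTS1 encodes a secreted metalloprotease that cleaves versican. Its levels were -0.04, -0.59, -0.59 and -1.14 in the controls, 1.94, 3.11, 1.18 and 0.09 on day 4 after 6.7 Gy and 2.22, 1.81, 2.71 and 0.65 on day 4 after 7.4 Gy. All 8 irradiated arrays were above all controls, and replicate 4 was the lowest in both irradiated groups. ADAMTS1 rose 4.49-fold at 6.7 Gy (log2 change 2.17, SE 0.50, adjusted p 0.0118) and 5.41-fold at 7.4 Gy (2.44, SE 0.50, adjusted p 0.00255), by limma, and its second probe, well above background on 11 of 24 arrays, was called at both doses as well. On day 7 it read 0.59, 0.17, 0.01 and -0.04 after 6.7 Gy and 0.34, -0.54, -0.98 and 0.58 after 7.4 Gy, and on day 12 -0.26 and -0.24 after 6.7 Gy and 0.18 and -0.29 after 7.4 Gy. These groups overlapped with the controls, although 3 of 4 arrays of 6.7 Gy on day 7 lay above the highest of them.

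CTGF, connective tissue growth factor, is a matricellular protein that promotes matrix production. It read -3.03, -3.27, -3.65 and -4.43 in the controls, -1.62, 0.02, -1.87 and -2.17 on day 4 after 6.7 Gy and -1.27, -2.24, -0.92 and -3.10 on day 4 after 7.4 Gy. At 6.7 Gy all arrays were above all controls, and at 7.4 Gy replicate 4 fell among the controls. CTGF rose 4.54-fold at 6.7 Gy (log2 change 2.18, SE 0.58, adjusted p 0.0225) and 3.27-fold at 7.4 Gy (1.71, SE 0.58, adjusted p 0.0419), by limma; the second of these calls was lost under 13 of 23 alternatives. Without control replicate 4 or replicate 2 at 6.7 Gy the first was lost (adjusted p 0.0688 and 0.0738), and without control replicate 2, 3 or 4 or replicate 1, 2 or 3 at 7.4 Gy the second was (0.0508 to 0.126). On day 7 CTGF read -2.99, -1.88, -2.95 and -3.25 after 6.7 Gy and -3.73, -1.73, -4.30 and -3.99 after 7.4 Gy, and on day 12 -3.13 and -3.18 after 6.7 Gy and -2.57 and -3.77 after 7.4 Gy. On day 7 the controls were exceeded by 3 arrays of the lower dose and by 1 array of the higher dose, and replicate 2 was the highest in both groups.

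PDGFRB, the receptor for platelet-derived growth factor B on pericytes and fibroblasts, read -1.90, -2.11, -1.61 and -2.10 in the controls and -0.53, -1.07, -0.69 and -0.80 on day 4 after 7.4 Gy, without overlap. It rose 2.23-fold (log2 change 1.16, SE 0.25, adjusted p 0.00334 by limma). FAP, fibroblast activation protein, a protease of activated fibroblasts, read -2.12, -2.89, -2.14 and -2.97 in the controls and -0.77, -1.22, -0.81 and -1.94 at 7.4 Gy, also without overlap, a 2.54-fold rise (1.34, SE 0.30, adjusted p 0.00435). INHBA, the subunit of activin A, had a large change at 7.4 Gy, 1.42, but with -0.48, -1.63, 0.77 and -1.55 on those arrays against -2.16, -1.56, -2.89 and -1.95 in the controls its spread was wide and it was not called (adjusted p 0.0636).

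The ligand TGFB1 itself changed by 0.15 and 0.10 on day 4, and its receptor TGFBR2 by 0.61 (adjusted p 0.0544) and 0.96 (adjusted p 0.00234, short of 2-fold). The dimmest TGFBR2 probe, well above background on 10 of 24 arrays, was called at both doses with changes of 1.09 and 1.41. PDGFRA (a platelet-derived growth factor receptor), THY1 (a surface glycoprotein) and VIM (the filament protein vimentin), all found in fibroblasts, changed by 0.70, 0.74 and 0.62 at 7.4 Gy. S100A4, a calcium-binding protein of fibroblasts and leukocytes, changed by -0.49 at 6.7 Gy and 0.35 at 7.4 Gy. None of these 4 genes was called.

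**Figure D4:**
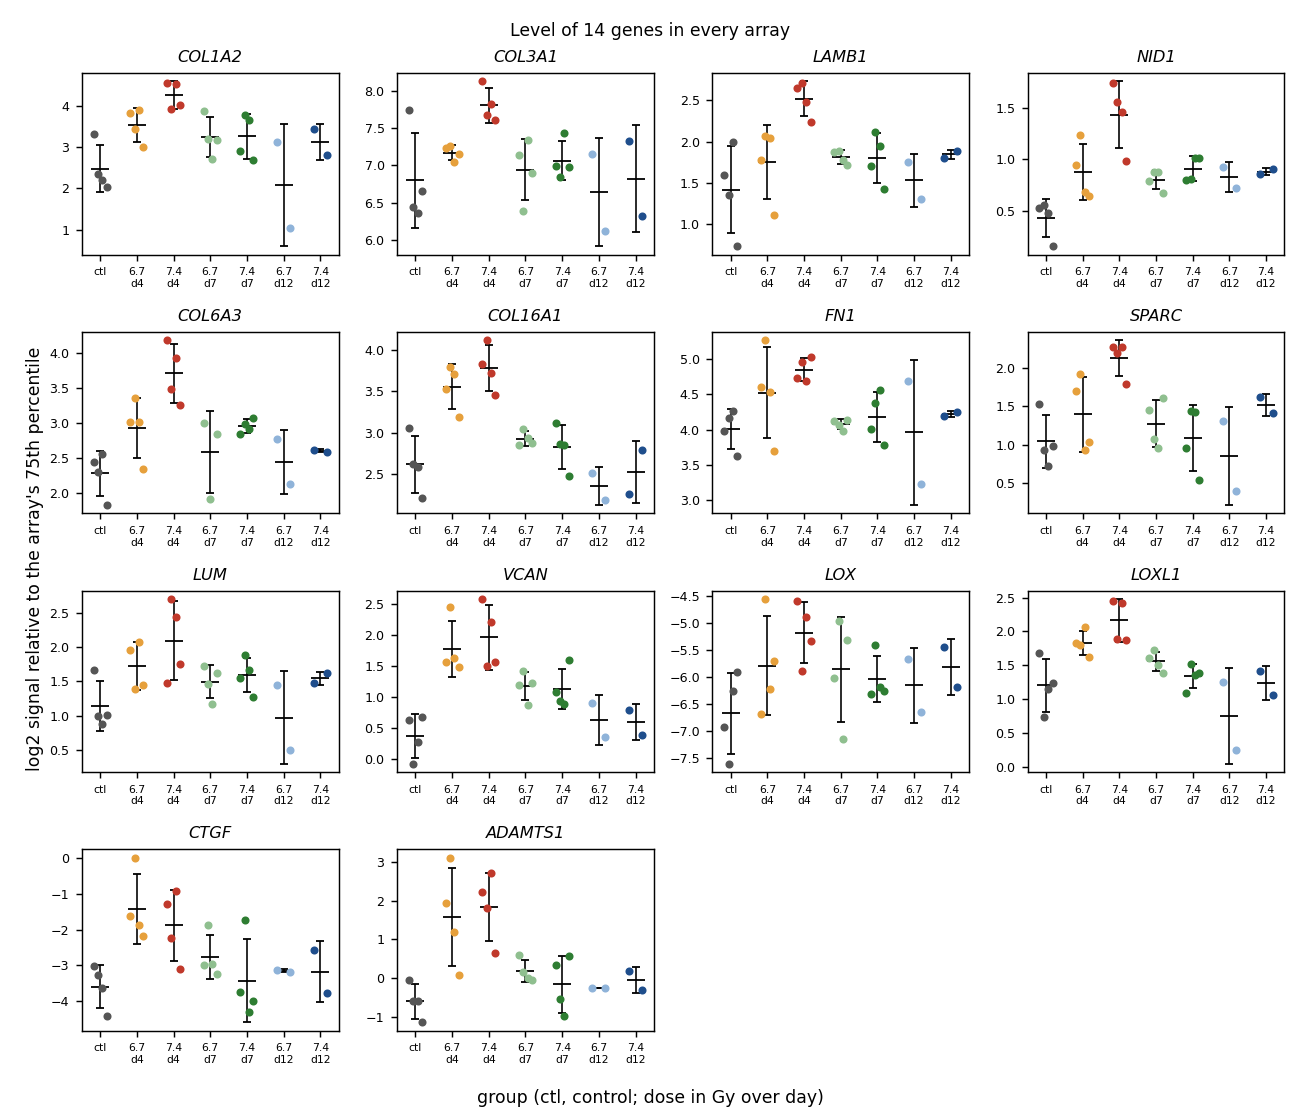
Log2 signal of 14 matrix genes (y axes, relative to the 75th percentile of the array, own scale per gene) in the 7 groups (x axes). Points are arrays, 1 animal each, and bars are the mean ± SD (n = 4; n = 2 on day 12; n = 3 for COL6A3 on day 7 after 6.7 Gy). The day 4 groups at 7.4 Gy do not overlap with the controls in any panel but COL3A1, LUM and CTGF, and in the LOX panel they all but touch them. The genes were picked for their large change in that same group, which favours panels without overlap. The share of all genes without overlap is not given.

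For 18 of the 38 genes more than 1 probe was tested, 28 further probes in all. On day 4, 26 of these 28 changed in the direction of the representative probe at each dose, and 2 and 4 of them were called, none against the representative probe. The exceptions were the second COL6A2 probe and the VCAN probe with changes near 0. Of the 9 further probes that belonged to genes called at 7.4 Gy, 2 were called too, one of VCAN and one of ADAMTS1. On the later days, where changes were small, 12 to 19 of the 28 shared the sign.

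No matrix gene was called between the doses on any day. On day 4, 7.4 Gy was above 6.7 Gy for 32 of the 38 genes, with a median difference of 0.32 and a range of -0.47 to 0.83, but none was called, and no gene of the array was called on any of the 3 days (0% of all genes tested). By limma 9 of the 38 had an unadjusted p under 0.05, among them NID1 (0.56, SE 0.16, adjusted p 0.472), LAMB1 (0.76, SE 0.24, adjusted p 0.523) and COL6A3 (0.78, SE 0.26, adjusted p 0.603). CTGF was the gene with the lowest difference, -0.47 (SE 0.58). On day 7 the median difference was -0.05, and on day 12, with 2 animals per dose, 0.27, where COL1A1 had the difference with the smallest unadjusted p, 0.99 (SE 0.41), and was fitted on 1 array at 6.7 Gy. None of the 38 had an unadjusted p under 0.05 on day 7 and 3 had on day 12. The dose difference itself changed from day 4 to day 7 by a median of -0.38, with none called (0.0068% of all genes); 5 had an unadjusted p under 0.05, with adjusted p of 0.994 for SPARC (-0.92) and S100A4 (-1.17).

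Over both doses, the matrix genes were lower on the later days than on day 4. All day 4 arrays lay at array positions 1 and 2, and all later ones at positions 3 and 4. Day and position thus cannot be told apart in these comparisons. From day 4 to day 7, 37 of 38 changes were below 0, with a median of -0.51 beside 0.02 over all genes. Only CTGF (-1.46, SE 0.41, adjusted p 0.0131) and ADAMTS1 (-1.70, SE 0.36, adjusted p 0.00197) were called, 5.26% of the 38, which is close to the 4.86% of all genes tested (2.28% lower). From day 4 to day 12, 8 of 38 were called, all lower, 21.1% beside 7.35% of all genes tested (3.62% lower and 3.73% higher), and the median was -0.66 beside 0.03 over all genes. With spike-in scaling 1 of the 38 was called, ADAMTS1, and the median was -0.19 beside 0.50 over all genes. These were COL1A1 (-1.05), COL1A2 (-1.30), COL16A1 (-1.22), VCAN (-1.25), CTGF (-1.52), INHBA (-1.54), S100A4 (-1.06) and ADAMTS1 (-1.87). COL16A1 and VCAN had no overlap between the day 4 and day 12 arrays, with limma adjusted p of 7.48e-05 and 0.000743. At 6.7 Gy on day 12 COL1A1 was fitted on replicate 2 alone, since the other spot was an outlier. Without replicate 2 of that group COL1A1 could not be refitted. Without replicate 2 of 6.7 Gy on day 12, or without replicate 2 of 7.4 Gy on day 12, 5 genes were called, 3 of the 8 among them in each case. COL1A2, CTGF, INHBA and S100A4 lost the call without either of these arrays, with changes of -0.77, -1.5, -1.21 and -0.85 without the first and -1.14, -1.22, -1.27 and -0.97 without the second. COL1A1 lost it without the second (-0.81) or without replicate 2 of 6.7 Gy on day 4 (-0.99). Single day 4 arrays also decided CTGF (6.7 Gy replicate 2 and 7.4 Gy replicates 1 and 3, changes of -1.28 to -1.41) and S100A4 (6.7 Gy replicate 1 and 7.4 Gy replicate 3, -0.99 and -0.93), as did 6.7 Gy replicate 1 on day 12 for CTGF (-1.53).

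Some genes of the wider collagen pathway were called on day 4, and with 1 or 2 calls per list and dose the shares are read as near the background. Of 17 measured genes of collagen synthesis and maturation (24 listed), 1 was called higher at 6.7 Gy and 2 at 7.4 Gy, beside 2.25% and 4.13% of all genes tested called higher, with median changes of 0.27 and 0.68. LEPREL1, a prolyl hydroxylase of collagens, changed by 1.36 and 1.61 (adjusted p 0.0311 and 0.0068 by limma), and ADAMTS2, which removes the amino-terminal propeptide of procollagen, by 1.07 at 7.4 Gy (adjusted p 0.0295). SERPINH1, the collagen chaperone, stood at 0.82 and was not called. Of 17 measured matrix receptors (20 listed), 1 was called higher at each dose and 1 lower at 7.4 Gy, with median changes of 0.20 and 0.19. Of all genes tested 2.25% and 4.13% were called higher at the 2 doses, and 3.90% lower at 7.4 Gy. ITGA2, the alpha-2 subunit of a collagen-binding integrin, rose at both doses, 1.51 and 1.58 (adjusted p 0.013 and 0.00458 by limma). DDR1, a collagen receptor tyrosine kinase of epithelia, fell at 7.4 Gy, -1.13 (adjusted p 0.000416).

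Of the 13 measured genes of the TGF-beta pathway (20 listed), 1 was called higher on day 4 at 6.7 Gy and none at 7.4 Gy. Of all genes tested 2.25% and 4.13% were called higher there, and the list's median changes were 0.05 and 0.09. Against day 4, 1 was called lower on day 7 and 2 on day 12, beside 2.28% and 3.62% of all genes tested. No gene of the 3 lists was called against control on day 7 or day 12.

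Markers of some other cell types of the gut wall moved on day 4, while most of the marker lists held no call then. Epithelial markers fell on day 4: 6 of the 11 measured (12 listed) were called lower at 6.7 Gy and 7 at 7.4 Gy, beside 1.90% and 3.90% of all genes tested called lower, with median changes of -1.01 and -1.51. The log2 of their summed signal ran from 9.61 to 9.97 in the controls, from 8.48 to 9.0 at 6.7 Gy and from 7.86 to 8.67 at 7.4 Gy, without overlap. SLC26A3, the chloride exchanger of surface colonocytes, changed by -2.96 and -4.32, and VIL1, villin of the brush border, by -1.0 and -1.63. Against day 4, 7 of the 11 epithelial markers were called higher on day 7, and 7 on day 12. Of all genes tested 2.58% and 3.73% were called higher in these 2 comparisons. The summed signal of the 38 matrix genes ran from 8.24 to 8.94 (log2) in the controls and from 8.90 to 9.27 at 7.4 Gy on day 4, where the lowest array fell below control replicate 1. The part of the epithelial change in the matrix values was not tested.

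Fibroblast markers outside the list had no call. Of 8 measured (14 listed), none was called on day 4, with medians of -0.12 at 6.7 Gy and 0.02 at 7.4 Gy. The log2 of their summed signal ran from 3.94 to 4.95 in the controls, from 3.94 to 4.24 at 6.7 Gy and from 4.13 to 4.73 at 7.4 Gy. Their values at 7.4 Gy ran from -0.25 for PI16 to 0.94 for SFRP1, a secreted Wnt antagonist (adjusted p 0.0149), and PRRX1 and TWIST1, transcription factors of mesenchymal cells, stood at 0.04 and 0.36. TCF21 was well above background on 1 of the 24 arrays and was not tested. Smooth muscle markers (6 of 10 measured) also had no call, with medians of -0.48 and 0.04, and their summed signal spanned 9.18 to 9.84 in the controls and 9.23 to 9.56 at 7.4 Gy. Pericyte markers RGS5, ABCC9 and KCNJ8 stood at 0.90, 0.80 and 0.73 at 7.4 Gy, none called, and their summed signal of 2.04 to 2.5 lay above that of the controls (0.82 to 1.75).

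Of the 6 measured endothelial markers (8 listed), VWF, von Willebrand factor, was called at 7.4 Gy (1.24, adjusted p 0.000414 by limma), while PECAM1 stood at 0.04. The neutrophil list, with 3 of 7 measured, held 2 calls at 7.4 Gy, S100A8 (3.62) and S100A9 (2.23), while CSF3R changed by -0.42. Its member MPO was well above background on 0 of 24 arrays. The 3 measured markers of macrophages and monocytes had medians of 0.53 and 0.80, the 3 of mesothelium 0.48 and 0.95 (with LRRN4 well above background on 5 of 24 arrays) and the 4 of adipocytes 0.12 and 0.89. T and B lymphocyte markers had medians of -0.50 and -0.67 at 6.7 Gy and of -0.54 and -1.0 at 7.4 Gy, and enteric glia -0.21 and -0.05. Among them CD5 was well above background on 2, CD28 on 3, MS4A1 on 3 and GFAP on 4 of 24 arrays, so these medians rest partly on probes near background. None of these last 6 lists held a call. The part of each of these cell types in the matrix values was not tested.

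**Figure D5:**
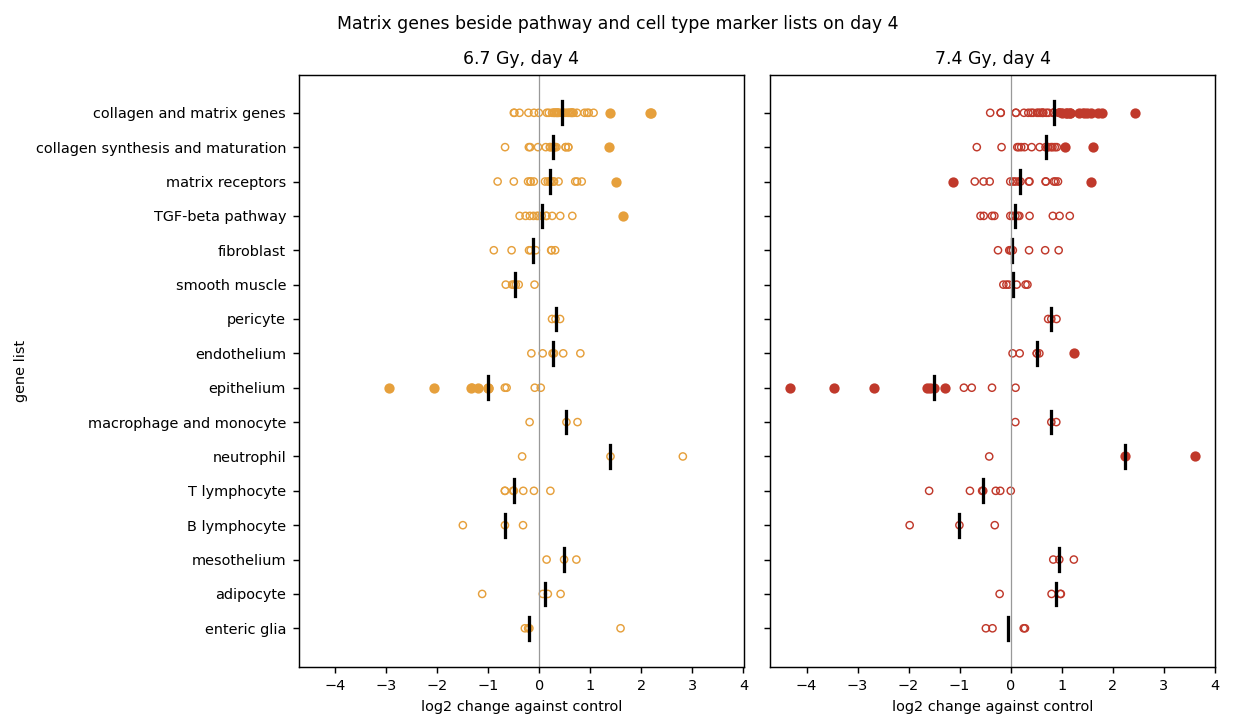
Log2 change against control (x axes) on day 4 after 6.7 Gy (left) and 7.4 Gy (right) for the 38 collagen and matrix genes, the 3 pathway lists and the 12 cell type marker lists (y axis). Points are genes, filled where called, and black bars are list medians. At 7.4 Gy the matrix genes have a median of 0.84, the fibroblast markers 0.02 and the epithelial markers -1.51.

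Scaling bears on the day 12 values at 6.7 Gy. The spike-in control probes of that group lay on average 1.17 lower against the 75th percentile than those of the controls. The means of the other groups were within 0.26 of the control mean, but single arrays differed more. Control replicate 1 stood at -1.1002, beside -0.4016 to -0.1975 in the other controls. Replicate 1 of 6.7 Gy on day 4 stood at -1.2535, beside -0.597 to -0.5135 in the rest of its group. The arrays of 6.7 Gy on day 12 stood at -1.7979 and -1.5048. Replicate 1 of that group also had 712 outlier spots, the most of the 24 arrays, and replicate 2 had 111. The cause of the low spike-in values was not tested. With arrays scaled to the spike-in probes the median of all genes at 6.7 Gy on day 12 moved to 1.19 and that of the 38 matrix genes to 1.0. Under that scaling 15 of the 38 were called (39.5%), all higher, beside 67.1% of all genes tested. The group has 2 arrays, and at the 75th percentile scaling its median change of -0.17 turned to 0.26 without replicate 2.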

How the data were processed

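Colon RNA of 24 rhesus macaques was hybridised to 1-colour Agilent arrays, 1 array per animal. The scanner intensity values were deposited by the authors as Feature Extraction 11.0.1.1 wrote them, background-subtracted and not yet scaled between arrays. A deposited table of log2 values, which the authors had scaled to the 75th percentile in GeneSpring, was used only as an alternative. Here the log2 of the processed intensity minus each array's 75th percentile (558 to 971) was used, control spots and outlier spots (24 to 712 per array) were left out, and spots of a probe were averaged. Of 43603 probes, 38216 were tested. On each array 66.6 to 84.8% of probes were well above background, and none was saturated; the number of arrays limits the precision. limma 3.58.1 in R 4.3.3 fitted 1 mean per group over all 24 arrays, with Benjamini-Hochberg adjustment over all probes tested. A call needed an adjusted p under 0.05 and a change of at least 2-fold. The script was tested on simulated data. The sample labels give day 12 for the last time point and were followed. The members and gene lists were chosen with earlier results of these data known. Values are shown per array for 14 genes, the 2 in each role with the largest change at 7.4 Gy on day 4, called genes first. Further genes shown per array, and uncalled genes of other lists that are named, were chosen after their values were seen. Alternatives were normexp background correction (on the median signal), other scalings, a mean over all probes of a gene, blocks for slide, scan day, array position and replicate number, the methods' t-test, and leaving out each array. One result of the TGF-beta pathway list is not reported here.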

Additional observations from a re-analysis of the deposited data

Results flagged for a closer look

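Of 74 groups of 4 arrays checked, 4 held 1 array far from the rest, judged by its gap to the nearest array as a share of the group's range; chance alone gives about 1 in 20. LOX in replicate 2 of 7.4 Gy on day 7 stood at -5.41, beside -6.31 to -6.19 in the other 3 arrays. LUM in control replicate 1 stood at 1.67, beside 0.88 to 1.01 in the other controls. VCAN in replicate 2 of 6.7 Gy on day 4 stood at 2.44, beside 1.48 to 1.62. The median of the 38 genes in replicate 3 of 6.7 Gy on day 7 stood at 0.98, below the other 3 arrays (1.2 to 1.22).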

How the results depend on the processing

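Over 605 refits of the calls of the main fit, 500 kept the call, 105 lost it and 0 changed sign. These refits overlap, and some settings hardly differ from the main one. The deposited table, for instance, correlated at 0.999998 with the values used here after centring. The total is thus no count of independent tests. On day 4 after 6.7 Gy, where 3 genes were called, 1 was with slide as a block, 1 with only those groups fitted and 0 by the methods' t-test (4 unadjusted), and 2 to 5 with single arrays left out (5 without replicate 4 of 6.7 Gy). On day 4 after 7.4 Gy, where 12 were called, 2 were when position and scan day were both blocked and 7 by the methods' t-test. With single arrays left out 9 to 17 were. Of the 38216 probes tested, that t-test called 492 on day 4 at 6.7 Gy, 1655 at 7.4 Gy and 2138 from day 4 to day 12. For the other counts here, except under spike-in scaling, the share of all genes called is not given. From day 4 to day 7, 1 was called with normexp and 2 to 3 with single arrays left out. Spike-in scaling called 4 there, 10.5% beside 6.46% of all genes tested. From day 4 to day 12, where 8 were called, 3 were by the methods' t-test and 5 to 11 with single arrays left out. Spike-in scaling called 1 there, 2.63% beside 14.7% of all genes tested. Spike-in scaling called 15 at 6.7 Gy on day 12 against control (beside 67.1% of all genes tested), with a median change of 1.0 (1.0041 unrounded). It called 4 lower at 7.4 than at 6.7 Gy on day 12, 10.5% beside 51.4% of all genes tested. Without replicate 2 of 6.7 Gy on day 12, that group's median change turned from -0.17 to 0.26. Except for the scaling, whose construction moves all genes, the cause was not tested. Deviations of arrays with the same replicate number correlated at -0.23 to 0.24 over 62 pairs, so the numbers were not taken to pair animals, while 36 pairs from different groups on a shared slide had a median of 0.13 (-0.02 for the others); with a replicate block 3, 11, 2 and 9 genes were called in these 4 comparisons. The block for array position was run on day 4 only, and the t-test not for the change in the dose difference. LOX lies near background, and day 12 has 2 animals per dose.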
